A study of Mus musculus with 10 samples.

Results

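The genes of calcium/calmodulin-dependent protein kinase II (CaMKII) and of its inhibitor proteins were measured by RNA-seq in mouse midbrain, dissected at embryonic day 14.5. The 6 genes were taken by symbol from a table of 30935 gene IDs: the kinase genes Camk2a, Camk2b, Camk2d and Camk2g and the inhibitor genes Camk2n1 and Camk2n2. All 6 passed the filter on low counts, as did 15288 genes in all. One group of embryos was Rbfox1 ΔHAR.321/ΔHAR.321 and lacked HAR.321, a human accelerated region of the Rbfox1 locus, on both alleles; Rbfox1 encodes a splicing factor. The other group was Rbfox1 +/+, called wild-type here. There were 5 libraries a group, each from its own biological sample: deletion 2, 3, 4, 5 and 6, and wild-type 1, 2, 4, 5 and 6. Strain, sex, litter and the making of the deletion line are not stated in the sources used here, so p-values measure the spread between these samples.

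CaMKII is a serine/threonine kinase built of many subunits, which the 4 kinase genes encode and which can mix in one enzyme. Calcium-loaded calmodulin frees each subunit from its own inhibitory segment, and subunits that phosphorylate each other stay active after calcium has fallen. The alpha and beta subunits, from Camk2a and Camk2b, are the forms best known from neurons and their synapses, and the beta subunit also binds actin. The delta and gamma subunits, from Camk2d and Camk2g, are found in many tissues. Camk2n1 and Camk2n2 encode small proteins that bind the active kinase and block it. Rbfox proteins bind RNA at a short motif, written TGCATG in DNA letters, in introns where they steer splicing and in 3′ untranslated regions (UTRs).

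Both inhibitor genes have short coding sequences, shown because these genes encode no kinase but the proteins that block it. They are read from GENCODE M21 transcripts (GRCm38 build), with their exons joined, between the first and last coding base at chr4:138455186-138456788 on the + strand for Camk2n1 and chr16:20620173-20621194 on the - strand for Camk2n2. Chromosome 16 also carries Rbfox1. Capitals mark the longest run of bases that is identical in both, 23 bases long.
Camk2n1: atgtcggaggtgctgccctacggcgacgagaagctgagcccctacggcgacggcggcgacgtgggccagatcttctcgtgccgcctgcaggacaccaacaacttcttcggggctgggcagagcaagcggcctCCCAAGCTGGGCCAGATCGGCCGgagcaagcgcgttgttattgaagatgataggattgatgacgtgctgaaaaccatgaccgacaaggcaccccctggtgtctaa
Camk2n2: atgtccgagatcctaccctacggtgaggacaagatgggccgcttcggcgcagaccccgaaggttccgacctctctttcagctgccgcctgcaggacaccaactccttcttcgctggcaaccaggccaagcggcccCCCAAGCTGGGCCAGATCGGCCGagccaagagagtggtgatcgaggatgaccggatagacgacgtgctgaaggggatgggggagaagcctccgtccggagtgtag
The coding sequences were 237 bases for Camk2n1 and 240 bases for Camk2n2, with 71.3% identical bases over 237 aligned positions. Between the kinase genes, identity over aligned coding bases ran from 77.2% for Camk2a with Camk2d to 79.6% for Camk2a with Camk2b. No window of 50 bases was shared between any of the 6 genes. Of all windows of that length, 0.253% of those of Camk2a and 0.106% of those of Camk2b also occurred in transcripts of other genes, and none of those of the other family genes did. No annotated exon of another gene overlapped theirs on either strand.

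The motif TGCATG was searched on the transcribed strand of the 3′ UTR of the longest coding transcript of each gene. It occurred in all 6: once each in Camk2a and Camk2n2, 2 times in Camk2b, 3 times each in Camk2d and Camk2n1, and 5 times in Camk2g. The 3′ UTR of Camk2n2, at 958 bases, is near the median of 935 bases over 20920 genes, and those of the other 5 genes are longer, from 1990 bases in Camk2g to 3591 bases in Camk2d. The motif was found in 31.9% of all 3′ UTRs. Among 3′ UTRs of like length (shorter over longer at least 0.8), 70% held it at the length of Camk2d, 50.2% at that of Camk2g and 27.1% at that of Camk2n2. The share was 68% at the lengths of Camk2a and Camk2n1 and 53.2% at that of Camk2b. These shares count 3′ UTRs with any site, so they do not say whether 5 sites are unusual. A match is a description of letters and not a shown binding site. The sites of Camk2g, the gene with the most, and that of Camk2n2, the shortest of the 3′ UTRs, follow with the motif in capitals and GRCm38 positions on the - strand.
Camk2g, chr14:20736698-20736727: aatgcacgccccTGCATGcagccctcccgc
Camk2g, chr14:20735614-20735643: tgctggacaatcTGCATGggcatcaccccc
Camk2g, chr14:20735591-20735620: caccccctcgccTGCATGtacccacaaagg
Camk2g, chr14:20735257-20735286: ctcaagcacttgTGCATGcctcagaccctg
Camk2g, chr14:20734974-20735003: atgcagaactttTGCATGatgacatagaaa
Camk2n2, chr16:20619723-20619752: tggctgcatattTGCATGagcttcctaccc

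The libraries held 16323500 to 20255728 counts in the deletion group and 16246892 to 19090641 counts in the wild-type group, and each family gene had 578 to 3016 counts in every library. The tissue carried midbrain markers: the summed level of 9 of them ran from 518.7 to 573.7 CPM (counts scaled to a common library total) in the deletion group and from 543.3 to 611.2 CPM in the wild-type group. Of markers of neighbouring brain regions, Hoxb2 and Hoxb3 were at 0 in every library, Hoxa2 had 0 to 15 counts in deletion and 0 to 6 in wild-type libraries, Emx1 17 to 29 in deletion and 15 to 28 in wild-type libraries, and Tbr1 0 to 74 in deletion and 4 to 61 in wild-type libraries. Muscle also uses CaMKII, and 6 muscle markers summed to 17.8 to 23.7 CPM in deletion and 13.7 to 27.5 CPM in wild-type libraries. Most of this was Myh8 (16.6 CPM in deletion and 16.9 CPM in wild-type libraries on average), while Myog was at 0 in every library and Ckm had at most 2 counts. Whether the tissue held muscle RNA, and whether it had a part in the results, was not tested. Rbfox1 itself averaged 160.9 ± 13.7 CPM in deletion and 148.7 ± 11 CPM in wild-type libraries (SD, n = 5 each; log2 fold change 0.11, SE 0.07), with an adjusted p of 0.606 in edgeR's quasi-likelihood test, by the Benjamini-Hochberg method over all genes. At an adjusted p of 0.05, 9 genes (0.0589%) passed, all of them lower in the deletion group. All 7 progenitor markers had negative log2 fold changes (median -0.10, none called), as did 7750 of all 15288 genes tested. The sum of these markers was 999.3 to 1457 CPM in deletion and 1066 to 1455 CPM in wild-type libraries. Of 8 neuronal markers, 5 were higher and 3 lower in the deletion group (median 0.03, none called). Those summed to 6412 to 7066 CPM in deletion and 6598 to 6883 CPM in wild-type libraries. The part of either cell type in the results below was not tested.

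All 6 family genes were transcribed at middle to high levels in the embryonic midbrain, and none passed the test between deletion and wild-type libraries. Over all 10 libraries, their mean level ran from 36.8 CPM for Camk2a, above 59.1% of the genes tested, to 142.9 CPM for Camk2n1, above 89% of them. These ranks are not corrected for length. Per kb of the longest transcript, the family ran from Camk2a, above 46.6% of 14119 genes, to Camk2n2, above 94.4%, with Camk2d above 62.4%. The log2 fold changes lay between -0.07 and 0.15. At an unadjusted p of 0.05, 0 of the 6 passed in edgeR, where 10.5% of all genes did. DESeq2 and limma-voom called 0 of the 6 at an adjusted p of 0.05. DESeq2 called 3.23% of a smaller set of 8080 genes, and limma-voom 0.0589% of 15288 genes. The groups overlapped for all 6, where 1.22% of all genes lay higher in every deletion library than in any wild-type one and 1.26% lower. In tissue libraries like these, fewer cells of a type and less RNA per cell cannot be told apart.

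**Figure D1:**
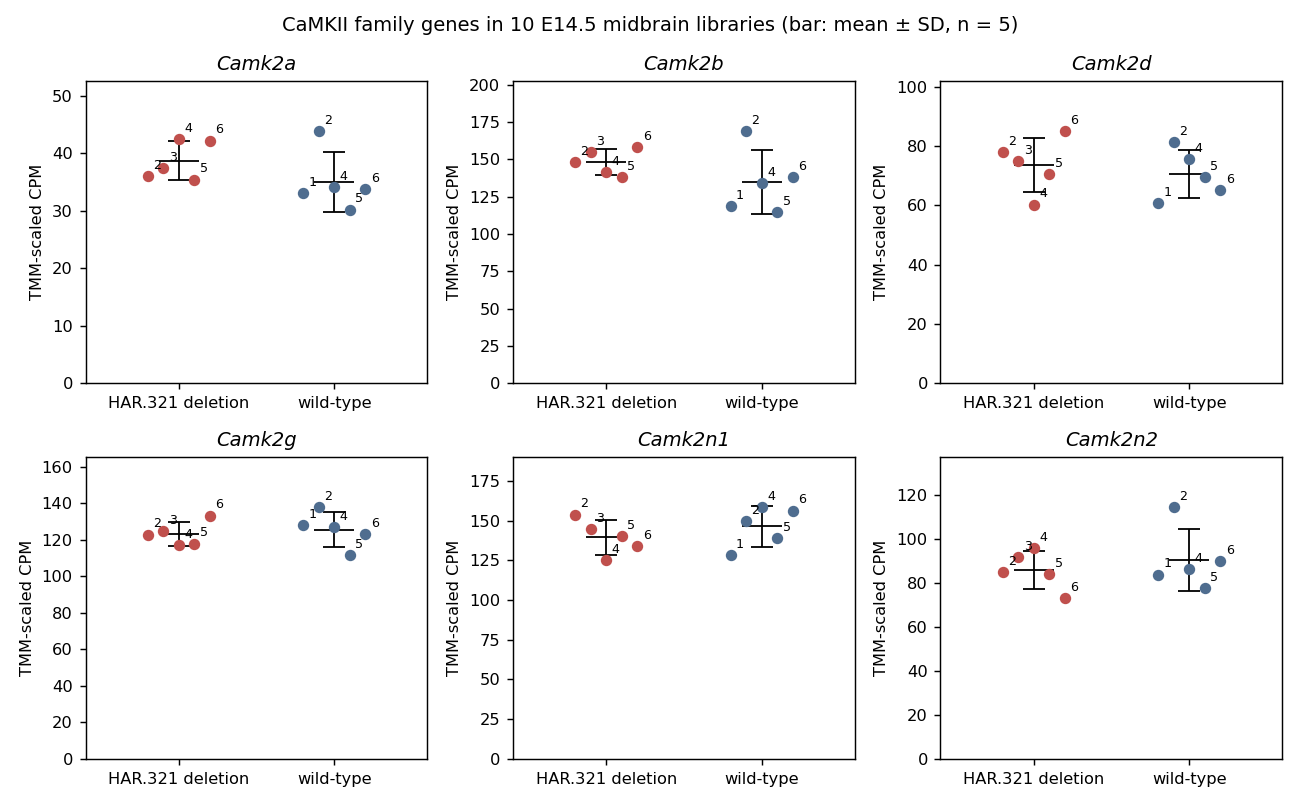
TMM-scaled CPM of the 6 family genes (y axes, from 0) in each library, with the library's number beside its point, for the HAR.321 deletion group and the wild-type group; bars give mean ± SD (n = 5 each). Wild-type 2 is the highest wild-type point in 5 of the 6 panels, and the groups overlap in every panel.

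Camk2a, the alpha subunit gene, was the lowest of the family in CPM. It stood at 36, 37.4, 42.4, 35.4 and 42.2 CPM in deletion 2, 3, 4, 5 and 6, against 33.0, 43.8, 34.1, 30.2 and 33.7 CPM in wild-type 1, 2, 4, 5 and 6. Each deletion library exceeded the mean of the wild-type group, but wild-type 2 was above all of them. The group means were 38.7 ± 3.37 CPM in deletion and 35.0 ± 5.16 CPM in wild-type libraries (SD, n = 5 each). On the log2 scale the change was 0.15 (SE 0.10, 95% interval -0.05 to 0.35), which did not pass (edgeR adjusted p = 0.638).

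Camk2b, the beta subunit gene, had the same layout at a higher level. Its values were 148.2, 154.7, 141.5, 138.0 and 158.5 CPM in deletion 2, 3, 4, 5 and 6, against 118.5, 168.8, 134.0, 114.7 and 137.9 CPM in wild-type 1, 2, 4, 5 and 6. Wild-type 2 was again the highest of all 10 libraries, and wild-type 1 and 5 were the lowest. The means were 148.2 ± 8.60 CPM in deletion and 134.8 ± 21.4 CPM in wild-type libraries. The log2 fold change of 0.14 (SE 0.08) had a 95% interval of -0.04 to 0.31 and did not pass (edgeR adjusted p = 0.614).

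Without wild-type 2, the log2 fold change was 0.23 for Camk2a (SE 0.09, edgeR adjusted p = 0.229) and 0.22 for Camk2b (SE 0.07, adjusted p = 0.132), more than 1.5 times the values over all libraries, and neither passed (0.57% of all genes did). With it left out and the libraries scaled anew, every deletion library lay above the 4 other wild-type libraries for Camk2a (35.4 to 42.3 CPM in deletion and 30.3 to 34.2 CPM in wild-type libraries), as did 3.29% of all genes. For Camk2b the groups still overlapped (137.8 to 158.1 CPM in deletion and 115 to 138.1 CPM in wild-type libraries). Wild-type 2 had the smallest total of all libraries and the second-lowest summed level of 7 progenitor markers (1066 CPM), while its 8 neuronal markers summed to 6767 CPM, within the wild-type range of 6598 to 6883 CPM. Whether these features had a part in its CaMKII values was not tested.

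Camk2d, the delta subunit gene, had widely overlapping values. It had 78.0, 74.9, 60.3, 70.6 and 85.0 CPM in deletion 2, 3, 4, 5 and 6, against 60.9, 81.4, 75.6, 69.5 and 65.2 CPM in wild-type 1, 2, 4, 5 and 6. The lowest and the highest of the 10 values were both in the deletion group, in deletion 4 and deletion 6. The means were 73.8 ± 9.18 CPM in deletion and 70.5 ± 8.16 CPM in wild-type libraries (log2 fold change 0.07, SE 0.09, 95% interval -0.12 to 0.25; edgeR adjusted p = 0.859).

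Camk2g, the gamma subunit gene, was the most even member. It had 122.8, 124.7, 117.2, 117.8 and 133.2 CPM in deletion 2, 3, 4, 5 and 6, against 127.9, 137.8, 126.8, 111.7 and 122.9 CPM in wild-type 1, 2, 4, 5 and 6. The deletion values lay within the wild-type range. The means were 123.1 ± 6.46 CPM in deletion and 125.4 ± 9.43 CPM in wild-type libraries, and the interval of the log2 fold change of -0.03 (SE 0.07; edgeR adjusted p = 0.936) ran from -0.16 to 0.11.

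The inhibitor genes had negative log2 fold changes, and neither passed. Camk2n1 had 153.8, 144.8, 125.0, 140.1 and 133.9 CPM in deletion 2, 3, 4, 5 and 6, against 128.1, 149.5, 158.5, 139.2 and 156.3 CPM in wild-type 1, 2, 4, 5 and 6. Its lowest value was in deletion 4 and its highest in wild-type 4. The log2 fold change was -0.07 (SE 0.07, 95% interval -0.22 to 0.08; edgeR adjusted p = 0.8). Camk2n2 had 85.1, 91.9, 95.8, 84.0 and 73.2 CPM in deletion 2, 3, 4, 5 and 6, against 83.9, 114.6, 86.4, 77.7 and 89.9 CPM in wild-type 1, 2, 4, 5 and 6. Here wild-type 2 was the highest library and deletion 6 the lowest. The log2 fold change was -0.07 (SE 0.09, 95% interval -0.27 to 0.12; edgeR adjusted p = 0.849), and it was 0.02 without wild-type 2 (adjusted p = 0.943).

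The 6 genes varied by different amounts between libraries of a group. In the deletion group, the coefficient of variation of the CPM ran from 5.25% for Camk2g to 12.4% for Camk2d. In the wild-type group it ran from 7.52% for Camk2g to 15.9% for Camk2b. The wild-type value of Camk2b was larger than that of 98.4% of the genes within 2-fold of its mean level, and those of Camk2n2 (15.7%) and Camk2a (14.8%) were larger than those of 97.5% and 90.7%. In the deletion group, Camk2b (5.80%) stood above only 30.4% of such genes, Camk2n2 (10%) above 67% and Camk2a (8.70%) above 41.1%. The wild-type values rested on wild-type 2: without it they were 9.02% for Camk2b, 6.07% for Camk2n2 and 5.38% for Camk2a, larger than those of 85.9%, 50.8% and 25.5% of such genes. Wild-type 2 was the highest wild-type library for all genes but Camk2n1, and wild-type 5 the lowest for Camk2a, Camk2b, Camk2g and Camk2n2. Among deletion libraries, deletion 6 was the highest for Camk2b, Camk2d and Camk2g and the lowest for Camk2n2, and deletion 4 was the highest for Camk2a and Camk2n2 and the lowest for Camk2d, Camk2g and Camk2n1.

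Levels of different genes can be set beside each other only per length, and the order of the kinase genes depended on the length used. Per kb of all annotated exons, Camk2g (19.2 ± 1.01 CPM per kb in deletion and 19.6 ± 1.47 in wild-type libraries) stood first. Camk2b (16.2 ± 0.943 in deletion and 14.8 ± 2.35 in wild-type libraries) followed. Camk2a (5.18 ± 0.451 in deletion and 4.68 ± 0.691 in wild-type libraries) and Camk2d (3.28 ± 0.408 in deletion and 3.14 ± 0.363 in wild-type libraries) were far lower. Per kb of the longest transcript, Camk2b (35.9 ± 2.09 CPM per kb in deletion and 32.7 ± 5.20 in wild-type libraries) and Camk2g (33.3 ± 1.75 in deletion and 33.9 ± 2.55 in wild-type libraries) stood close together. Camk2b was above Camk2g in 5 of 5 deletion libraries and in 2 of 5 wild-type libraries, where the means differed by less than either SD. On that scale Camk2d (13.4 ± 1.66 in deletion and 12.8 ± 1.48 in wild-type libraries) stood above Camk2a (7.79 ± 0.678 in deletion and 7.04 ± 1.04 in wild-type libraries). The annotated exons of Camk2d sum to 22493 bases, against 5524 bases in its longest transcript. On both scales Camk2n2 was the highest of the 6 genes (66.6 ± 6.69 CPM per kb in deletion and 70.1 ± 11 in wild-type libraries; SD, n = 5 each throughout), and its level per kb of the longest transcript was above that of 94.4% of 14119 genes. Camk2n1 stood at 31.4 ± 2.45 CPM per kb in deletion and 32.9 ± 2.85 in wild-type libraries, about the level of Camk2b and Camk2g per kb of the longest transcript.

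The share of each kinase gene in the kinase pool overlapped between the groups for all 4 genes. Of the sum of the 4 kinase genes per kb of exon, Camk2g made up 43.8% ± 0.406 in deletion and 46.6% ± 2.27 in wild-type libraries (SD, n = 5 each). The share of Camk2b was 37.0% ± 0.569 in deletion and 34.9% ± 1.96 in wild-type libraries. Camk2a made up 11.8% ± 0.980 in deletion and 11.1% ± 0.444 in wild-type libraries, and Camk2d 7.45% ± 0.649 in deletion and 7.45% ± 0.660 in wild-type libraries. Per kb of exon, the overlap for Camk2b and Camk2g rested on wild-type 2, which was looked at after the values were seen. Camk2b had 37.4% there, 32.4% to 36.2% in the other wild-type libraries and 36.5% to 37.9% in deletion libraries. Camk2g had 43.5%, 46% to 49.8% and 43.4% to 44.4% in the same order. Per kb of the longest transcript, the share of Camk2d was 14.8% in each group. By that length, Camk2b also overlapped through wild-type 6 (39.2%, against 39.1% in deletion 6). Summed CPM of the 4 kinase genes averaged 383.8 ± 23.9 in deletion and 365.7 ± 40.7 in wild-type libraries, and that of both inhibitor genes 225.5 ± 12.9 in deletion and 236.8 ± 21.8 in wild-type libraries. The ratio of the inhibitor to the kinase sum was 0.590 ± 0.0538 in deletion (0.494 to 0.621) and 0.649 ± 0.0306 in wild-type libraries (0.612 to 0.684). The CPM in these sums were not divided by length. Their ratio does not say whether inhibitor or kinase transcripts were more numerous. The length trend of each library, given below, was not removed from it, and the part of that trend in the group values was not tested. These shares and ratios are given as descriptions, without a test.

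**Figure D2:**
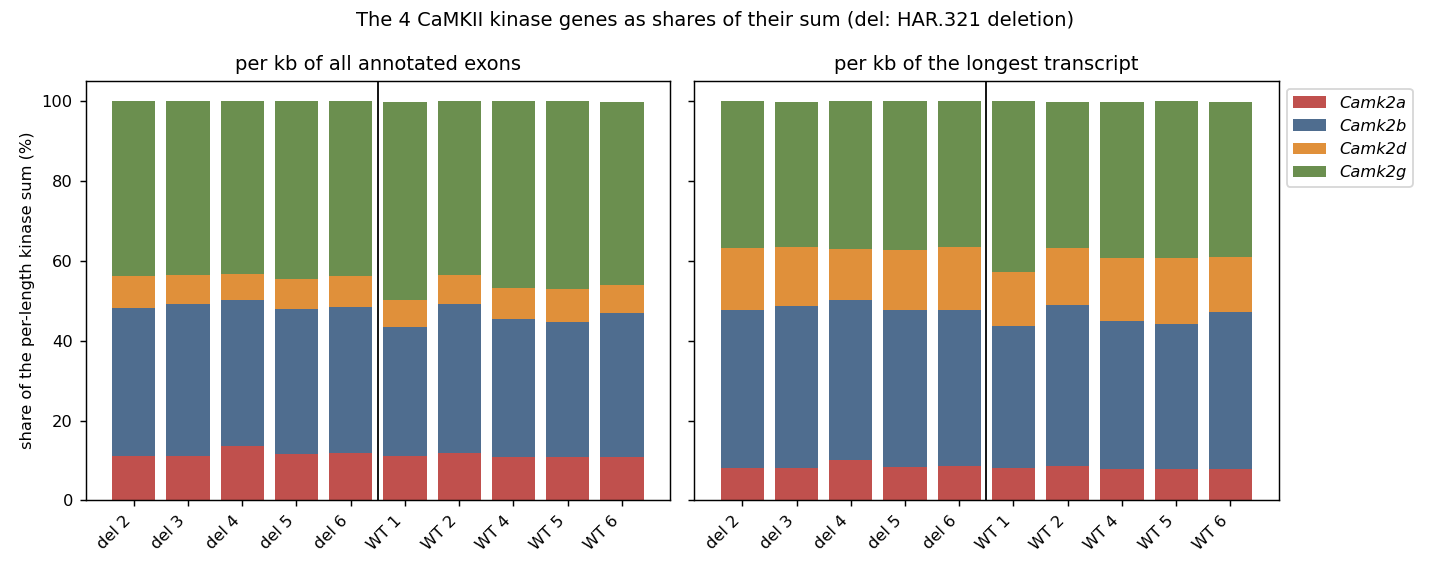
Share of each kinase gene in the per-length sum of the 4 kinase genes (y axis, percent), in each deletion library (del) and each wild-type library (WT), per kb of all annotated exons and per kb of the longest transcript. Camk2b and Camk2g make up most of the sum in every library, and the share of Camk2d averages 7.45% on the first scale and 14.8% on the second.

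Lists of 12 partner genes each were set beside the family: calmodulin and other calmodulin-dependent kinases, calmodulin buffers with the phosphatases that act on CaMKII, and anchors and substrates of CaMKII. None of these genes was called (0.0589% of all genes were). The 12 anchors and substrates were higher in the deletion group in 12 cases, with a median log2 fold change of 0.15, against 0.00 over all genes tested, of which 49.3% were higher. Their summed level overlapped between the groups (1262 to 1458 CPM in deletion and 1093 to 1401 CPM in wild-type libraries). These 12 values come from the same libraries and are not independent, and the list was chosen with earlier results of these data known. Syn1, a synaptic vesicle protein that CaMKII phosphorylates, had 134.8, 127.1, 138.4, 126.4 and 137.5 CPM in deletion 2, 3, 4, 5 and 6, against 103.4, 139.5, 103.8, 92.6 and 113.2 CPM in wild-type 1, 2, 4, 5 and 6. Wild-type 2 was the highest library of all 10, as for Camk2a and Camk2b, and the 4 other wild-type values of Syn1 lay below the deletion group. Its log2 fold change was 0.27 (SE 0.08, edgeR adjusted p = 0.207), and 0.36 without wild-type 2 (SE 0.07, adjusted p = 0.0253), where 0.57% of all genes were called. Tiam1, an activator of the GTPase Rac, had 57.6, 57.0, 55.4, 58.2 and 64.1 CPM in deletion 2, 3, 4, 5 and 6, against 54.6, 49.3, 48, 45 and 52.4 CPM in wild-type 1, 2, 4, 5 and 6. Its groups did not overlap, as for 1.22% of all genes (log2 fold change 0.23, SE 0.07; edgeR adjusted p = 0.215). At an unadjusted p of 0.05, 4 of the 12 were higher, against 5.62% of all genes, and 8 of the 12 without wild-type 2, against 7.03% of all genes. Beside Syn1 and Tiam1 they were the calcium channel gene Cacna1c (0.24, SE 0.09) and Kalrn (0.15, SE 0.07). The receptor gene Grin2b, whose NMDA receptor subunit holds CaMKII at the synapse, stood at 0.24 (SE 0.13) on this scale. Cacna1c, Kalrn, Grin2b and, below, Nrgn are named after their values were seen.

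Of the calmodulin genes and other calmodulin-dependent kinases, 8 of 12 had a higher value and 4 a lower one, with a median log2 fold change of 0.07. Calm2, one of the genes that encode the same calmodulin protein, averaged 635.3 ± 9.22 CPM in deletion and 688.4 ± 41.9 CPM in wild-type libraries (log2 fold change -0.12, SE 0.06; edgeR adjusted p = 0.530). Camk4, a kinase of the nucleus, averaged 13.8 ± 1.72 CPM in deletion and 11.6 ± 2.22 CPM in wild-type libraries (0.25, SE 0.14; adjusted p = 0.555). Of the buffers and phosphatases, 5 of 12 had a higher value and 7 a lower one, with a median of -0.01, and 1, Pcp4, was lower at an unadjusted p of 0.05 (4.92% of all genes were). Pcp4, a small calmodulin-binding protein, averaged 9.32 ± 1.81 CPM in deletion and 12.3 ± 3.15 CPM in wild-type libraries (-0.40, SE 0.17; adjusted p = 0.390). Without wild-type 2 its log2 fold change was -0.26 (SE 0.16), and the unadjusted p of 0.125 no longer passed. Ppm1e, a phosphatase that can switch CaMKII off, averaged 191.3 ± 21.4 CPM in deletion and 173.4 ± 10.5 CPM in wild-type libraries (0.14, SE 0.07; adjusted p = 0.513). Nrgn, the calmodulin buffer of adult forebrain neurons, was at only 2.31 ± 0.599 CPM in deletion and 2.24 ± 0.938 CPM in wild-type libraries.

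**Figure D3:**
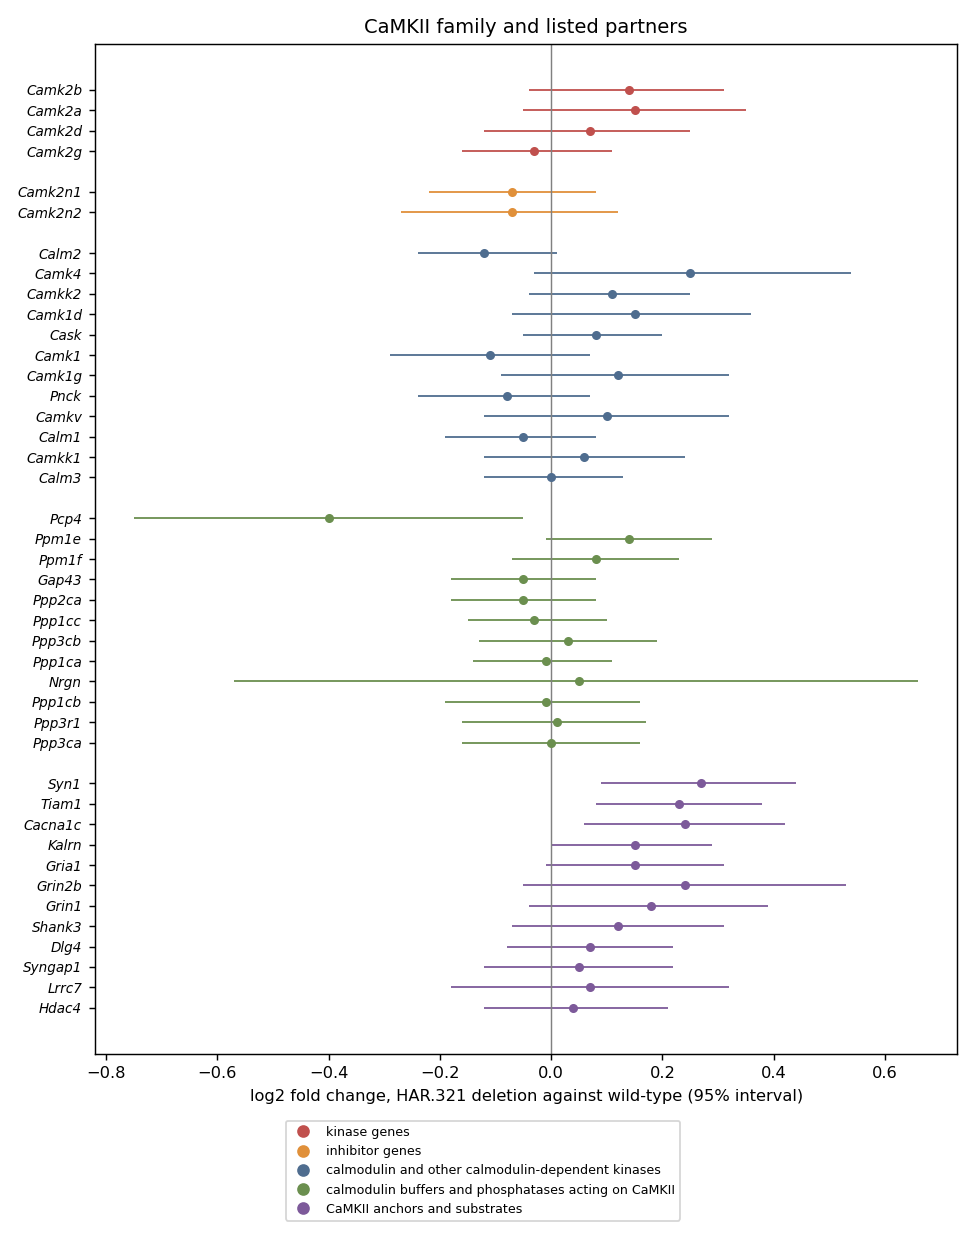
Log2 fold change of HAR.321 deletion against wild-type (x axis) with its 95% interval for the 6 family genes and the 12 genes of each partner list, coloured by list and sorted by p within each. All 12 anchors and substrates lie above 0, and the intervals of all 6 family genes include 0.

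Transcript length moved with these values. The slope of a library's log2 CPM on log2 transcript length was 0.035 ± 0.057 per doubling in deletion and -0.035 ± 0.022 in wild-type libraries (SD, n = 5 each). Deletion 4, at -0.055, lay within the wild-type range of -0.061 to -0.01, and without it the deletion mean was 0.057 ± 0.032 (n = 4). The median log2 fold change was 0.09 over genes whose longest transcript exceeds 8 kb and -0.16 over those under 1 kb. Camk2n2 has the shortest transcript of the family, at 1291 bases, and the other 5 run from 3703 bases for Camk2g to 5524 bases for Camk2d. With each library's trend on length removed, Camk2n2 stood at 0.03 (SE 0.09), and at 0.04 (SE 0.07) when GC content was taken out as well. Camk2a had 0.11 and 0.08, Camk2b 0.12 and 0.09, and Camk2d 0.01 and 0.03, in these fits. Camk2g had -0.03 and -0.06, and Camk2n1 -0.10 and -0.13. The values of Camk2n1 thus lay further from 0 than its -0.07 with no trend removed. The anchors and substrates are long, with a median of 7305 bases, and 9 of 12 were higher in each of these fits (medians 0.08 and 0.07), as were 49.9% of all genes. At an unadjusted p of 0.05, 3 of the 12 were higher with the length trend removed and 2 with GC content taken out as well, against 4.3% and 5.03% of all genes. Syn1, at 3261 bases, had log2 fold changes of 0.27 and 0.25 in these fits, Tiam1 0.16 and 0.12, Cacna1c 0.15 and 0.12, and Kalrn 0.06 in both. Pcp4 had -0.21 and -0.20, with an unadjusted p of 0.27 and 0.268. Calm2 had 0.00 and 0.06, so that its negative value was lost with the length trend removed and turned with GC content taken out as well.

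**Figure D4:**
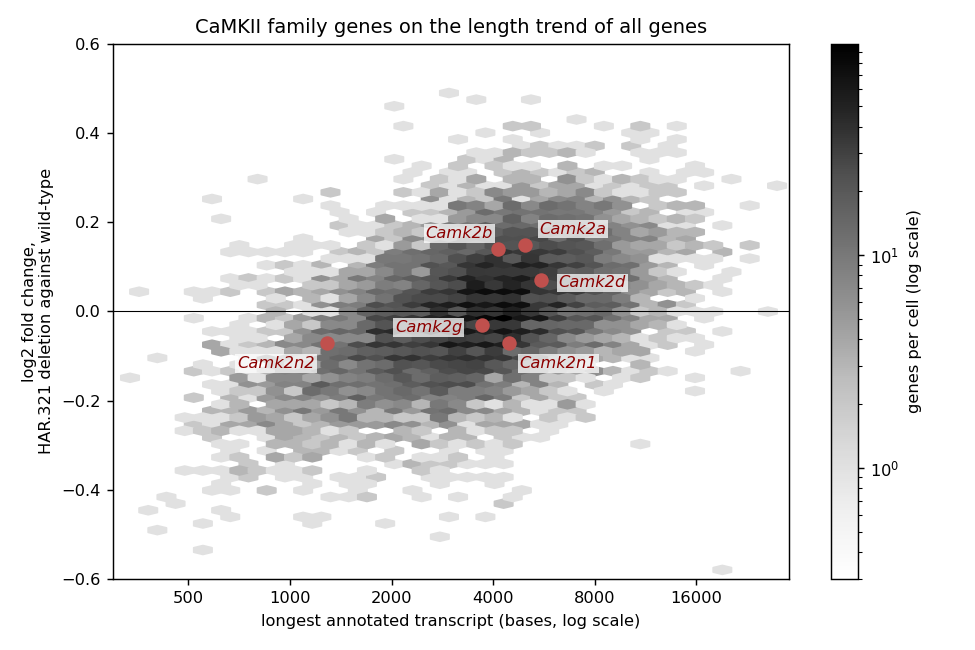
Log2 fold change of HAR.321 deletion against wild-type (y axis) against the length of the longest annotated transcript (x axis, log scale). Grey cells count genes with a mean above 8 CPM, without those beyond 0.6 in either direction, and the red points are the 6 family genes, of which Camk2n2 is the shortest at 1291 bases.

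Over the 20 other settings tried, Camk2a and Camk2b were always higher and Camk2n1 always lower in the deletion group. The sign of Camk2d and Camk2n2 was not the same in all. Camk2g was lower in 19 settings and stood at 0.00 without wild-type 2. Over the 10 settings that keep all libraries, Camk2a ran from 0.08 to 0.16 and Camk2b from 0.07 to 0.15 on the log2 fold change scale. Leaving out 1 library at a time gave 0.10 to 0.23 for Camk2a and 0.08 to 0.22 for Camk2b, with the upper ends without wild-type 2 and the lower ends without wild-type 5. Camk2n1 ran from -0.15 to -0.07 in the same settings and from -0.11 to -0.03 with a library left out. The smallest adjusted p of any family gene in any of these fits was 0.132, for Camk2b in edgeR without wild-type 2. The share of all genes called was 0.0981% with upper-quartile factors, 0.301% without a filter, 0.0632% with a filter of 1 CPM in 5 libraries and 0.118% with the length and GC trend removed. With 1 library left out it ran from 0% to 2.31%, the highest without deletion 4, with 0.0194% without deletion 3 or 6 and 0.00648% without wild-type 4.

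**Figure D5:**
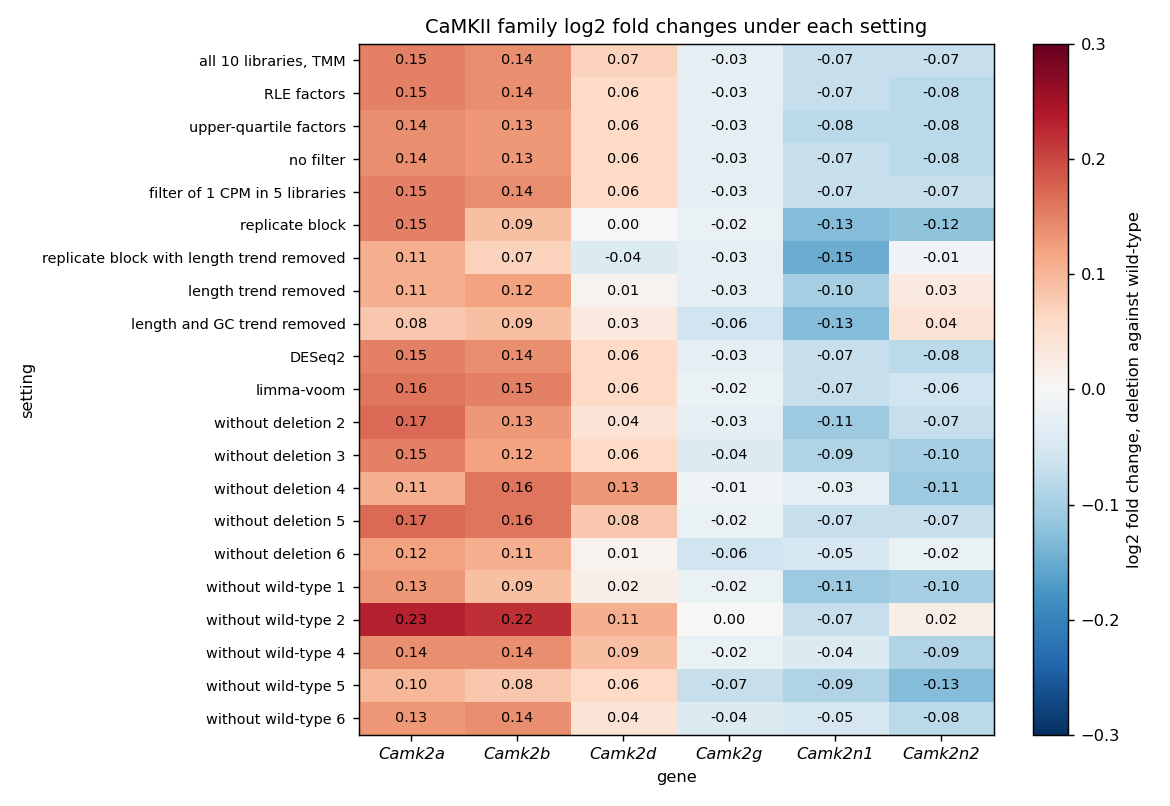
Log2 fold change of deletion against wild-type for each family gene (columns) under each setting (rows), as colour and number. Camk2a and Camk2b are above 0 in every row, with their highest values, 0.23 and 0.22, in the row without wild-type 2.

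By their deviations from the group means over the 10 libraries, the genes most like each member were found among 10004 named genes with a mean of at least 10 CPM. The likeness is Pearson's r of those deviations, which also carry what the libraries share, such as depth and the length trend, and the highest of so many values is high by selection, so no p is given. Camk2a was most like Tbc1d16 (r = 0.97, n = 10) and Agap2 (r = 0.96), and Camk2b most like Eno2, the enolase of neurons (r = 0.98), and Arl8a (r = 0.96). Camk2d was most like Tapt1 (r = 0.95) and Shtn1, a protein of growing axons (r = 0.94), and Camk2g most like Tmem132b (r = 0.95) and Nrg3, a neuregulin (r = 0.94). Camk2n1 was most like Ttc9 and Cybrd1 (r = 0.93 for both), and Camk2n2 most like Flot2 and Rhbdf1 (r = 0.94 for both). Without wild-type 2, these 12 values ran from 0.86 to 0.99. None of these 12 genes was called between the groups in edgeR.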

How the data were processed

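RNA-seq counts of 10 midbrain libraries were analysed. Per the submitters' processing notes, HISAT2 and featureCounts were used, with the mm39 build. Versions, annotation, strandedness and the treatment of multi-mapped reads are not stated in the sources used here. The authors deposited whole-number counts per Entrez gene ID without normalization. Symbols came from RefSeq (GRCm38.p6), for 30648 of 30935 IDs (the others held 0.0116% of the counts), and lengths and sequences from GENCODE M21 (GRCm38), for 92.4% of the genes tested. That build is not the one counted on. Its coordinates place the printed sequences, and its exons also gave the lengths for CPM per kb and the check for overlapping exons.

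The test was edgeR 4.0.16 (R 4.3.3), quasi-likelihood with robust settings, after filterByExpr and TMM scaling; all 10 libraries entered with genotype alone in the model, and Benjamini-Hochberg adjustment ran over all 15288 genes, threshold 0.05. CPM are TMM-scaled, with a prior count of 2 for log2 CPM. The standard error is the log2 fold change divided by the square root of F. Length trends were splines with 4 degrees of freedom per library, fitted above a mean log2 CPM of 3. DESeq2 1.42.0 and limma-voom (limma 3.58.1) were alternatives, with other factors, filters, a replicate block and leaving out each library. The script was tested on simulated data. No 2 libraries of a group were copies (lowest chi-square per degree of freedom 5.79 over 20 pairs). No pairing of libraries by replicate number is stated in the sources used here.

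Named were the 6 family genes, Rbfox1, the called or else the 2 smallest-p members of each partner list, and the 2 genes most like each member. Members and lists were chosen with earlier results of these data known. Precision rests on the spread between 5 libraries a group, which may be partly technical, and on depth. Exon use and splicing were not analysed here.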

Additional observations from a re-analysis of the deposited data

Results flagged for a closer look

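Of 20 sets of 5 values looked at (the CPM of 6 genes and the shares of 4 kinase genes, in each group), 2 had a library far from the others by Dixon's ratio, and both concern Camk2a in wild-type 2. Chance flags about 1 in 20 such sets. The shares are computed from the same CPM, so the 2 flags are not separate observations. Camk2a stood at 43.8 CPM in wild-type 2, against 34.1 CPM in the next wild-type library, a gap of 0.713 of the range. Its share of the kinase sum was 11.8% there, against 11% in the next wild-type library, a gap of 0.748 of the range.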

How the results depend on the processing

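No family gene passed an adjusted p of 0.05 in any of the 20 alternatives. Signs turned for Camk2n2 with the length trend removed (0.03), with the length and GC trend removed (0.04) and without wild-type 2 (0.02). That of Camk2d turned under the replicate block with the length trend removed (-0.04). Camk2g stood at 0.00 without wild-type 2. With any 1 library left out, Camk2g ran from -0.07 to 0.00 and Camk2n2 from -0.13 to 0.02. The cause of these shifts was not tested. Over all genes, 9 were called in edgeR, 15 with upper-quartile factors, 69 with no filter, 18 with the length and GC trend removed, 0 with the length trend removed, 0 with the replicate block, and 0 with both (1185, 924 and 600 at an unadjusted p of 0.05). DESeq2 called 261 of 8080 genes. With 1 library left out the count ran from 0 to 357 (without deletion 4; 88 without wild-type 2). Deviations of the 4 libraries with shared numbers in each group had correlations from -0.06 to 0.05 over 15288 genes. Such values cannot show whether libraries were paired by design, and no pairing is stated in the sources used here. With the replicate block the log2 fold change was 0.15 for Camk2a, 0.09 for Camk2b, 0.00 for Camk2d and -0.13 for Camk2n1. Per kb of the longest transcript, shares of the kinase sum in deletion libraries were 8.63% for Camk2a, 39.8% for Camk2b, 14.8% for Camk2d and 36.8% for Camk2g. In wild-type libraries they were 8.13%, 37.7%, 14.8% and 39.4%, in the same order of genes. With either trend removed, which was chosen after seeing the data, 8 of 12 buffers and phosphatases were higher, against 5. The lowest count of a family gene was 578. The wild-type spread without wild-type 2, the length slope without deletion 4 and the partner lists without either library were also chosen after seeing the data.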
